A study of Mus musculus with 8 samples.

Results

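The regions described here are the 100 kb windows of the mouse autosomes with the densest GLI1 and GLI2 peaks. Each autosome was tiled from position 0 (build mm9), each peak was put in the window of its centre, and a window was kept when the 4 day 0 peak lists together had 15 or more peaks in it. The windows were thus chosen by their peak counts, and those counts are given below as a description. The rule kept 846 of 24153 windows (3.5%), or 84.6 of 2415.3 Mb. They held 14200 of 165007 autosomal peaks (8.61%). Over 3 lists, with 12 or more peaks, 415 windows were dense without GLI1 replicate 2 and 1298 without GLI2 replicate 1.

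The 8 samples of the series are 4 anti-FLAG ChIP libraries and their 4 inputs, from female F1-2.1 mouse embryonic stem (ES) cells that carry the Tet-on transactivator rtTA. The cells also carry a doxycycline-inducible transgene, GLI1-3xFLAG in one group and GLI2-3xFLAG in the other, with 2 biological replicates each, per the labels. All cells grew on irradiated feeder fibroblasts and received 1 µg/mL doxycycline and 100 nM SAG, an agonist of the receptor Smoothened, for 72 hours. They were harvested undifferentiated, on day 0. The factors are therefore tagged, overexpressed and measured under forced pathway activity, and no cells lacking the FLAG tag were analysed here. The feeder cells were settled away at harvest, and peak lists give no marker by which the identity of the cells could be checked. GLI1 replicates 1 and 2 had 42634 and 55741 peaks over all chromosomes, and GLI2 replicates 1 and 2 had 26511 and 48921. Cutoffs in the labels were 1e-4 for the GLI1 lists and 1e-5 for the GLI2 lists. A setting written as s, whose meaning is not stated, was 50 in both replicate 1 lists and 20 in both replicate 2 lists, so factor goes with cutoff and replicate number with s. The lists give no read counts, so depth is unknown and all intervals below cover counting of peaks, regions or windows only.

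GLI proteins carry zinc fingers and act as the transcriptional output of Hedgehog signalling. Hedgehog ligand relieves the block that the receptor Patched puts on Smoothened, and active Smoothened lets GLI proteins act in the nucleus. GLI2 is the main primary activator, whereas GLI1 is itself a target gene and amplifies the response. Both recognise closely related DNA sequences through their zinc fingers, so the same chromosomal neighbourhoods are candidates for either.

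All 4 lists contributed to the dense windows, and most windows drew on every one of them. GLI1 replicate 1 had 3.55 ± 1.64 peaks per dense window (SD over 846 windows), against 1.68 per window over all autosomes. GLI1 replicate 2 had 5.78 ± 2.19 against 2.19. GLI2 replicate 1 had 2.84 ± 1.60 against 1.05, and GLI2 replicate 2 had 4.62 ± 1.81 against 1.91. Relative to its own mean, each list was thus raised by 2.11, 2.64, 2.70 and 2.42 times in this order, and GLI1 replicate 1 was raised least. Peaks of all 4 lists were present in 796 windows (94.1%), against 40.6% of all autosomal windows, and the remaining 50 windows had peaks of 3 lists. All 4 lists exceeded their own mean in 556 dense windows (65.7%), against 6.46% of all windows. These shares follow in part from the choice of windows with a high sum.

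**Figure D1:**
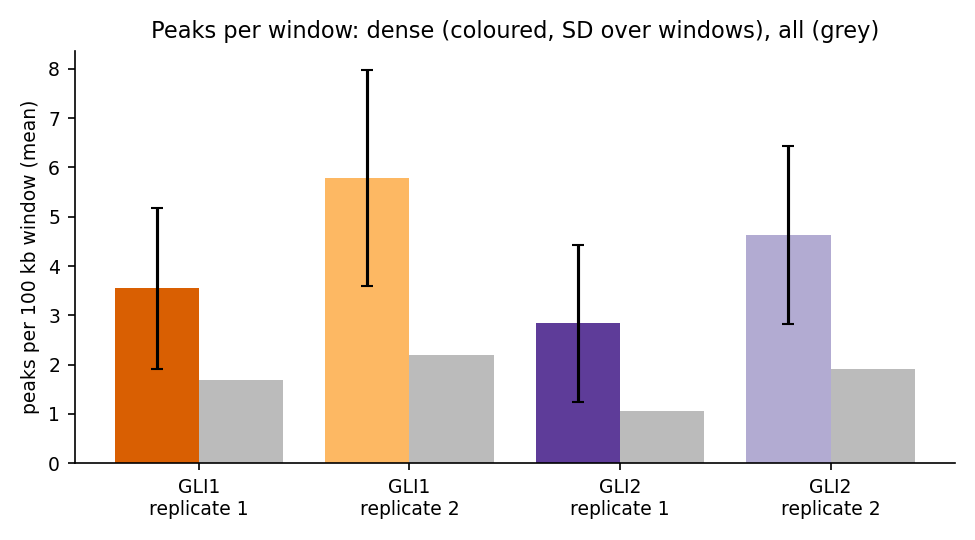
Mean number of peaks per 100 kb window in each list (y axis), for the 846 dense windows (coloured bars, error bars SD over windows) and for all 24153 autosomal windows (grey bars). Every list is higher in the dense windows, and GLI1 replicate 2 is highest with 5.78 peaks per window.

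Longer lists weigh more in a sum, and GLI1 replicate 2 supplied 34.4% of the peaks in dense windows, against 32.0% of all autosomal peaks. GLI1 replicate 1 supplied 21.1% against 24.6%, GLI2 replicate 1 supplied 16.9% against 15.4%, and GLI2 replicate 2 supplied 27.5% against 28.0%. The fullest list gave 26.3 to 80% of a window's peaks, with a median of 40%. In 130 windows (15.4%) 1 list gave at least 50% of the peaks, and in 97 of these that list was GLI1 replicate 2. The sums reached from 15 to 32, with a median of 16, so most members lie close to the threshold, which was 2.20 times the autosomal mean of 6.83 peaks per window. Windows just inside, with a sum of 15, numbered 299 and held 3.28, 5.10, 2.43 and 4.19 peaks of GLI1 replicates 1 and 2 and GLI2 replicates 1 and 2. Windows just outside, with a sum of 14, numbered 421 and held 3.05, 4.92, 2.24 and 3.79 peaks of the same lists. The mixture of lists was thus alike on both sides of the threshold.

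The shares of the GLI1 and GLI2 lists that lay in dense windows were interleaved. The share was 7.39% (95% exact interval 7.13 to 7.65) in GLI1 replicate 1 and 9.26% (9.01 to 9.51) in GLI1 replicate 2. It was 9.46% (9.10 to 9.83) in GLI2 replicate 1 and 8.47% (8.21 to 8.72) in GLI2 replicate 2. The means were 8.32 ± 1.32% for GLI1 and 8.96 ± 0.702% for GLI2 (SD, n = 2 each), a difference smaller than the spread between the GLI1 replicates. No test is given, since these shares come from the counts that chose the windows. GLI1 minus GLI2 was -2.07 percentage points within replicate 1 and 0.790 within replicate 2. With lists of equal weight in the choice of windows the difference in means was larger, at -1.98 percentage points. The direction of the difference in means also turned when single lists were left out. In windows chosen by the remaining lists it was 0.137 percentage points with GLI1 replicate 1 left out. It was 1.10 with GLI2 replicate 1 left out and 0.329 with GLI2 replicate 2 left out.

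Single windows that leaned to one factor were close to the background in frequency. With each count divided by the mean of its list, both GLI1 lists lay above both GLI2 lists in 158 dense windows (18.7%), against 17.6% of all autosomal windows. Both GLI2 lists lay above both GLI1 lists in 190 (22.5%), against 18.3%. Separation by replicate number, which goes with the caller setting s, had shares of the same order. Both replicate 1 lists were above both replicate 2 lists in 98 dense windows (11.6%, against 16.4%), and the reverse held in 160 (18.9%, against 13.8%). The crossed separation, GLI1 replicate 2 with GLI2 replicate 1 on top, was found in 170 windows (20.1%, against 10.7%). Of all these separations it lay furthest above its background. Its upper lists were also those raised most in dense windows, by 2.64 and 2.70 times their means. The opposite crossed separation was rare, at 70 windows (8.27%, against 16%). Sparse windows hold more ties at 0, so the background shares are not from windows of equal count.

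The windows that leaned most to GLI1 were led by chromosome 6 from 84000001 to 84100000, with 4 and 10 GLI1 peaks in replicates 1 and 2 and 0 and 1 GLI2 peaks. Chromosome 3 from 103400001 to 103500000 had 6 and 9 GLI1 peaks against 1 and 2 GLI2 peaks. A pair of adjacent windows on chromosome 1, from 135900001 to 136100000, leaned the same way. Its first window had 7 and 7 GLI1 peaks against 1 and 0, and its second 8 and 7 against 1 and 1. Chromosome 12 from 5100001 to 5200000 followed, with 5 and 9 GLI1 peaks against 1 and 1. These 5 windows were chosen from those where the counts of both GLI1 lists, in multiples of the list means, lay above both GLI2 counts. Peaks of the factors still met at single places in 3 of the 5, the windows on chromosomes 3 and 12 and the second on chromosome 1, with 2 regions of both factors each.

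The strongest lean to GLI2 was on chromosome 17 from 46900001 to 47000000, with 9 and 8 GLI2 peaks in replicates 1 and 2 and a single GLI1 peak in each replicate. In that window the 19 peaks formed 14 separate regions, and none of these held peaks of both factors. Chromosome 7 from 3200001 to 3300000 had 7 and 6 GLI2 peaks against 1 and 1 GLI1 peaks. Chromosome 8 from 113700001 to 113800000 had 7 and 8 against 1 and 2. Chromosome 4 from 131700001 to 131800000 had 5 and 7 against 1 and 2, and chromosome 13 from 54700001 to 54800000 had 7 and 8 against 2 and 2. Counts of 0 to 2 peaks in a list leave the ratio between factors in any single window uncertain.

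Windows chosen without a list were also denser in that list, though less so than the lists that chose them. Windows with 12 or more peaks over 3 lists were taken, and the fourth list was then counted. In 932 such windows GLI1 replicate 1 had 2.51 peaks per window, 1.49 times its autosomal mean, whereas the choosing lists stood at 2.63 times theirs. GLI1 replicate 2 had 3.94 peaks in 415 windows, 1.80 times its mean, with the choosing lists at 2.82 times. GLI2 replicate 1 had 1.84 peaks in 1298 windows, 1.75 times its mean, and GLI2 replicate 2 had 3.31 peaks in 628 windows, 1.73 times its mean. The choosing lists stood at 2.35 and 2.71 times in those windows. Every list was thus raised where it took no part in the choice, by a factor between 1.49 and 1.80. The choosing lists together averaged 5.15, 4.64, 5.78 and 4.92 peaks per autosomal window, so the fixed threshold of 12 was not equally strict. It was strictest where GLI1 replicate 2 was left out, so the factors are not directly comparable between lists. Windows without any peak of the fourth list made up 7.08%, 2.41%, 16.6% and 4.78% of the windows in this order, against 21.2%, 16.9%, 37.0% and 18.2% of all windows.

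The same held across factors. With the threshold again at 2.20 times the mean and rounded up, 1218 windows (5.04%) were dense by the GLI1 lists alone (9 or more peaks), and 1644 (6.81%) by the GLI2 lists alone (7 or more). GLI2 peaks in the GLI1-dense windows averaged 4.22, 1.43 times their autosomal mean of 2.96. GLI1 peaks in the GLI2-dense windows averaged 5.37, 1.39 times their mean of 3.87. The sets had 226 windows in common, 18.6% of the GLI1-dense and 13.7% of the GLI2-dense windows. Between replicate numbers, 263 windows were dense in both sets, 12.6% of the 2092 windows (8.66% of all) chosen by the replicate 1 lists and 29.3% of the 898 (3.72%) chosen by the replicate 2 lists. Windows dense for both factors taken separately were therefore a minority of each set. Choosing windows by pairs of lists was an alternative added after seeing the data.

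Dense windows clustered along the chromosomes. Of the 846 windows, 247 (29.2%, 95% exact interval 26.2 to 32.4) directly adjoined another dense window, and 5.67% of the other autosomal windows adjoined a dense one. The interval takes windows as independent, but the 247 lie in 104 runs of 2 or more, so it is too narrow. Of the windows next to a dense window 16.9% were dense, against 3.5% of all windows. A second dense window lay within 0.5 Mb of 65.7% of them and within 1 Mb of 78.4%. Among the other autosomal windows 20.3% and 32.2% had a dense window within these distances. The median step from one dense window to the next on the same chromosome was 0.6 Mb, with quartiles of 0.2 and 2.3 Mb and a longest step of 98.8 Mb. The windows formed 703 runs, of which 599 were single windows, 76 were pairs, 20 were of 3 windows and 8 were longer. Without GLI1 replicate 2, 415 windows had 12 or more peaks over 3 lists, and 18.3% of these adjoined another.

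The surroundings of dense windows were dense as well, over megabases. The directly adjoining windows, which the rule did not use unless dense themselves, averaged 10.5 peaks, 1.53 times the autosomal mean. The value was 1.38 times at 0.5 Mb, 1.33 times at 1 Mb, 1.23 times at 2 Mb, 1.14 times at 5 Mb and 1.08 times at 10 Mb. The lists differed in this profile. At 1 Mb GLI1 replicate 2 stood at 1.50 times its mean, GLI2 replicates 1 and 2 at 1.30 and 1.30 times, and GLI1 replicate 1 at 1.15 times. Windows chosen without the list in question gave the same order of lists at 1 Mb up to the tie of the GLI2 replicates, with 1.39 times for GLI1 replicate 2, 1.26 times for both GLI2 replicates and 1.14 times for GLI1 replicate 1. The fixed threshold of 12 peaks over 3 lists was strictest for GLI1 replicate 2, so list and strictness cannot be told apart in this order. A list that took no part in the choice thus showed both a step at the dense window itself and a slope over several megabases. The means are over all autosomes, and chromosomes with more peaks per window had more dense windows. The slope, most of all its low values at 5 and 10 Mb, is thus not separated from the level of the chromosome. Windows near each other are not independent, and the values carry no test.

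**Figure D2:**
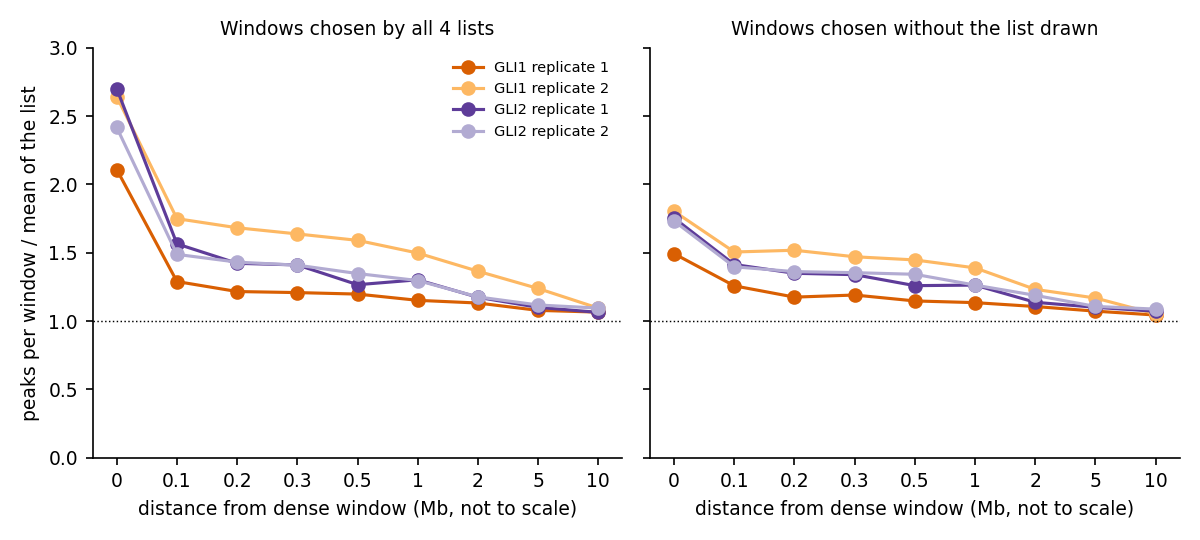
Peaks per window divided by the autosomal mean of the list (y axis, dotted line at 1) against distance from a dense window in Mb (x axis, not to scale), 1 line per list. On the left windows were chosen by all 4 lists, and on the right by the 3 lists other than the one drawn. There the value at distance 0 falls to between 1.49 and 1.80, while the slope out to 10 Mb remains. The level of the chromosome is not removed from the slope.

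The dense windows were unevenly spread over the 19 autosomes. Chromosome 12 had the highest share, with 90 of its 1183 windows (7.61%), followed by chromosome 17 with 56 of 923 (6.07%) and chromosome 11 with 64 of 1189 (5.38%). Chromosome 9 had the lowest, with 3 of 1211 (0.248%), and chromosome 2 had 15 of 1788 (0.839%). The shares went along with the overall peak level of the chromosome. Chromosome 12 averaged 7.86 peaks per window over the 4 lists, whereas chromosomes 9 and 2 averaged 4.65 and 4.71. On chromosome 9 the mean per window was 0.865 and 1.89 for GLI1 replicates 1 and 2 and 0.609 and 1.29 for GLI2 replicates 1 and 2, below the autosomal mean in every list.

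With the threshold scaled to each chromosome's own mean, an alternative chosen after seeing the data, the order of chromosomes changed. Chromosome 2 then had the highest share, with 79 windows (4.42%), and chromosome 9 followed with 46 (3.80%). Chromosome 12 fell to 24 windows (2.03%), and the lowest share was that of chromosome 3, with 23 (1.47%). This threshold kept 628 windows in all, of which 503 were also dense by the fixed sum (80.1% of these and 59.5% of the 846). Whether the level of a chromosome comes from the cells or from calling within chromosomes was not tested.

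**Figure D3:**
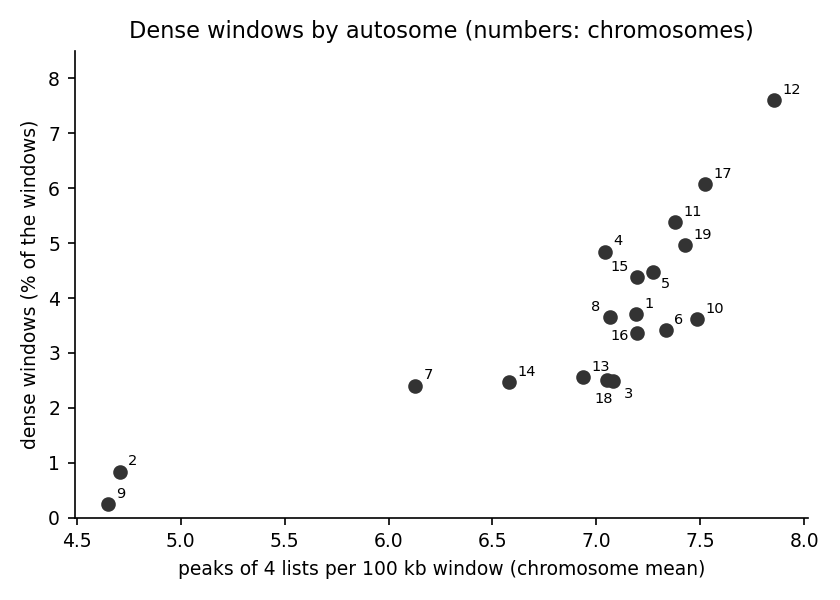
Dense windows as a percentage of the windows of each autosome (y axis) against the chromosome's mean number of peaks of the 4 lists per 100 kb window (x axis, which does not begin at 0), 1 point per autosome with its number. Chromosomes 9 and 2 are low on both axes, and chromosome 12 is highest on both.

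Within chromosomes, the dense windows were spread unevenly over blocks. The 50 fullest of 505 blocks of 5 Mb held 394 dense windows (46.6%), a share raised by picking the fullest, while 230 blocks (45.5%) held none. The fullest block lay on chromosome 17 from 25000001 to 30000000, with 16 dense windows of 50 and a mean of 12.4 peaks per window. In that block GLI1 replicate 1 stood at 1.22 times its autosomal mean, GLI1 replicate 2 at 2.07, GLI2 replicate 1 at 1.98 and GLI2 replicate 2 at 1.98. Blocks on chromosome 4 from 135000001 to 140000000 and on chromosome 12 from 105000001 to 110000000 had 15 dense windows each. In both of them GLI1 replicate 2 was highest, at 2.37 and 2.44 times its mean. These blocks were named after their values were seen. The last 5 Mb of the chromosomes' peak-holding spans were richer than the first. There 59 of 950 windows (6.21%) were dense, against 34 of 950 (3.58%) in the first 5 Mb and 753 of 22253 (3.38%) in between.

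The longest run of dense windows covered 0.6 Mb of chromosome 17, from 27000001 to 27600000. Its 6 windows held 16 and 49 peaks of GLI1 replicates 1 and 2 and 17 and 29 peaks of GLI2 replicates 1 and 2. The run is thus carried unevenly, with GLI1 replicate 2 highest. The next was a run of 5 windows on chromosome 12 from 113700001 to 114200000, with 16, 38, 11 and 30 peaks in the same order. Of 6 runs of 4 windows, the one with most peaks lay on chromosome 11 from 19700001 to 20100000 and had 21, 27, 9 and 29 peaks. It contained the widest peaks of both replicate 1 lists.

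Of all members, the window of chromosome 11 from 3000001 to 3100000 had the largest sum. It held 5 and 7 peaks of GLI1 replicates 1 and 2 and 9 and 11 peaks of GLI2 replicates 1 and 2, 32 in all. In multiples of each list's mean these were 2.97, 3.20, 8.57 and 5.75, so both GLI2 lists lay above both GLI1 lists. The 32 peaks merged into 14 regions, of which 8 held peaks of both factors and 2 held a peak of every list, from 3038001 to 3040000 and from 3053601 to 3056600. This window lies near the start of the peak-holding span of its chromosome. Genes in or near any of these windows are not named, since gene positions were given for a different build only.

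The second largest sum, 29 peaks, was in the window of chromosome 11 from 19800001 to 19900000. It held 8, 7, 3 and 11 peaks of GLI1 replicates 1 and 2 and GLI2 replicates 1 and 2, which merged into 2 regions and, with peaks that reach in from beside, covered 95.4% of its bases. The widest peak was 100 kb in GLI2 replicate 1, 36.2 kb in GLI1 replicate 1, 8.6 kb in GLI2 replicate 2 and 4 kb in GLI1 replicate 2. The widest peaks were thus those of the replicate 1 lists, and the GLI2 replicate 1 peak ran on past the end of the window. The window before it, from 19700001 to 19800000, had 4, 9, 3 and 8 peaks.

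Among the remaining windows of the 10 with the largest sums, no list was empty. Chromosome 8 from 122300001 to 122400000 had 26 peaks in all, with 3 and 13 GLI1 peaks and 3 and 7 GLI2 peaks. The replicate 2 lists gave most of them. Chromosome 8 from 93300001 to 93400000 went the other way for GLI1, with 10 and 6 GLI1 peaks and 4 and 4 GLI2 peaks. On chromosome 5 the window from 136300001 to 136400000 had 8, 6, 6 and 4 peaks, and the one from 135000001 to 135100000 had 3, 6, 3 and 12. On chromosome 17 the window from 27300001 to 27400000 had 3, 12, 4 and 5 peaks, and the one from 48000001 to 48100000 had 7, 6, 2 and 9. A window of chromosome 18 from 38700001 to 38800000 had 5, 10, 4 and 5 peaks. Apart from the first of these windows, all had sums of 24. In all 8 windows had this sum, and the one not among the 10, on chromosome 13 from 54400001 to 54500000, had 5, 10, 1 and 8 peaks and so the lowest count in any list.

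The 14200 peaks in dense windows merged into a median of 12 regions per window (quartiles 11 and 13, range 2 to 20), spread over a median of 8 of the 10 segments of 10 kb in a window. Only 60 windows (7.09%) had 15 or more separate regions, so in the other windows the sum of 15 rests in part on several lists with a peak at one place. Peaks of any list covered 17.9% of the bases of dense windows and 7.60% of the bases of other windows.

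Regions inside dense windows were shared by more lists than regions elsewhere. Of 10053 merged regions inside, 6907 (68.7%, 95% exact interval 67.8 to 69.6) had a peak of a single list, against 81.9% of the 124515 regions outside. Regions of 2 lists made up 23.6% (22.8 to 24.5) against 15.5%, and regions of 3 lists 6.10% (5.64 to 6.58) against 2.26%. All 4 lists met in 157 regions (1.56%, 1.33 to 1.82) inside, against 431 (0.346%) outside. The median width of regions with the same number of lists was equal inside and outside, at 1200 bp for 1 list, 1600 bp for 2 and 1800 bp for 3 and for 4. A region counts once for each list towards the sum of its window, so part of this difference follows from the rule.

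**Figure D4:**
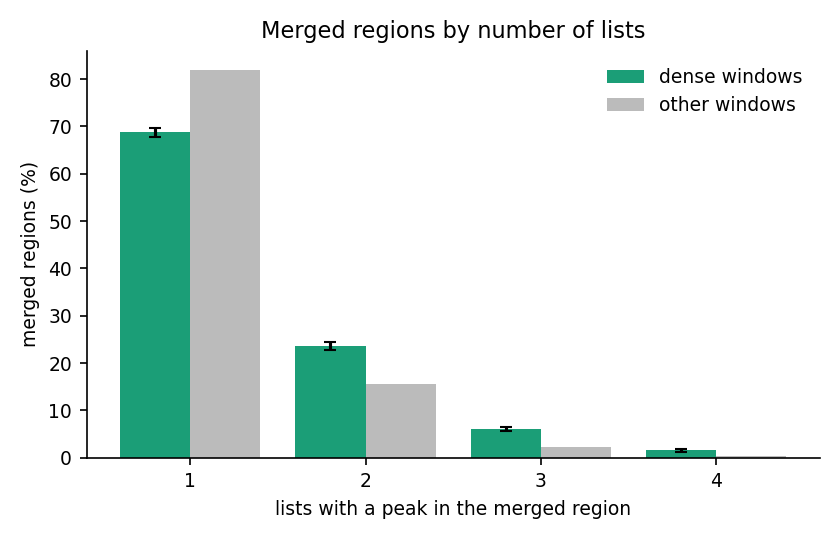
Share of merged regions (y axis, percent) by the number of lists with a peak in them (x axis), inside dense windows (green, with 95% exact intervals of counting) and in other autosomal windows (grey). Regions of a single list are 68.7% inside and 81.9% outside, and regions of 2, 3 and 4 lists are all more frequent inside.

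Regions with peaks of both factors were 1862 of 10053 inside (18.5%), against 8.84% outside. GLI1 alone had peaks in 4896 regions (48.7%, against 53.9%) and GLI2 alone in 3295 (32.8%, against 37.3%). At least 1 region of both factors was present in 800 dense windows (94.6%), against 37.5% of the other windows. The median was 2 such regions per dense window and the highest number 8. A region of all 4 lists was present in 147 dense windows (17.4%) and in 1.83% of the others. The highest number was 2, in 10 windows, and the 5 of these with the largest sums are named. Besides the first window of chromosome 11 named above, they are those on chromosome 12 from 88200001 to 88300000, chromosome 1 from 182800001 to 182900000, chromosome 16 from 32300001 to 32400000 and chromosome 6 from 113100001 to 113200000. Their sums were 22, 21, 18 and 17 peaks, and the last was the first by position of 3 windows with a sum of 17.

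The 4-list regions were small parts of these windows. On chromosome 12 they lay from 88217801 to 88219400 and from 88227601 to 88229200, in a window with 5, 4, 4 and 9 peaks of GLI1 replicates 1 and 2 and GLI2 replicates 1 and 2. On chromosome 1 they lay from 182825201 to 182827200 and from 182839601 to 182843000, where the lists had 3, 8, 5 and 5 peaks. On chromosome 16 they lay from 32324601 to 32328000 and from 32378601 to 32380400, and on chromosome 6 from 113119801 to 113121600 and from 113148601 to 113152600. The 10 regions of these 5 windows were between 1600 and 4000 bp wide.

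Peaks of one factor met a peak of the other more often inside dense windows than outside. Of GLI1 replicate 1 peaks inside, 30.6% (95% exact interval 28.9 to 32.2) overlapped a peak of either GLI2 list by at least 1 bp, against 14.2% outside. For GLI1 replicate 2 the share was 28.7% (27.4 to 30.0) against 15.3%. For GLI2 replicate 1 it was 35.4% (33.5 to 37.4) against 19.8%, and for GLI2 replicate 2 it was 38.6% (37.1 to 40.2) against 19.7%. All 4 lists were higher inside, with means of 29.6 ± 1.33% for GLI1 and 37.0 ± 2.26% for GLI2 (SD, n = 2 each). The GLI1 lists held 56.6% of all autosomal peaks, so GLI2 peaks had more partners to meet and these means are not directly comparable. A peak of both lists of the other factor was met by 7.22 to 9.33% of peaks inside and 2.57 to 3.18% outside. Fewer lists leave fewer partners: the mean was 13.9% for GLI1 without GLI2 replicate 2, and 20.0% for GLI2 without GLI1 replicate 2, each in windows chosen by the remaining lists.

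Recurrence between the replicates of a factor was also higher inside. In GLI1 replicate 1, 36.4% of the peaks inside overlapped a GLI1 replicate 2 peak, against 19.8% outside, and seen from replicate 2 the shares were 22.7% and 15.5%. In GLI2 replicate 1, 46.5% of the peaks inside overlapped a GLI2 replicate 2 peak, against 33.8% outside, and seen from replicate 2 the shares were 29.1% and 18.4%. These overlaps add to the sum that chose the windows, and in windows chosen by the lists of the other factor alone the rise was smaller. There the shares were 26.4% against 20.5% for GLI1 replicate 1 and 17.9% against 16% for GLI1 replicate 2. They were 40.0% against 34.7% for GLI2 replicate 1 and 22.5% against 19% for GLI2 replicate 2. The rise was thus 1.12 to 1.29 times, compared with 1.37 to 1.84 times in the windows chosen by all lists. Recurrent peaks met the other factor more often than peaks of a single replicate. Inside dense windows, 38.9% and 40.2% of recurrent GLI1 peaks in replicates 1 and 2 overlapped a GLI2 peak, against 25.8% and 25.3% of those seen in a single GLI1 list. Of recurrent GLI2 peaks, 41.9% and 44.2% overlapped a GLI1 peak, against 29.8% and 36.3% of the others. The same order held outside, so it is not particular to dense windows. There the shares were 22.3% and 22.3% against 12.2% and 13.9% for GLI1, and 24.2% and 24.6% against 17.5% and 18.6% for GLI2. Of the regions with both GLI1 lists, 436 of 1093 (39.9%) held a GLI2 peak inside, against 23.1% outside, and of those with both GLI2 lists, 491 of 1118 (43.9%) held a GLI1 peak, against 25.1%.

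The rise in overlap was smaller than the rise in covered bases. In dense windows GLI1 replicates 1 and 2 covered 5.29% and 8.20% of bases, against 2.31% and 2.79% elsewhere. GLI2 replicates 1 and 2 covered 4.25% and 6.46%, against 1.34% and 2.48%. The share of peak centres that fell in a peak of another list was therefore divided by the share of bases which that list covered in the same windows. From GLI1 to GLI2 lists or back, this ratio lay between 2.46 and 3.80 inside dense windows (median 3.33 over 8 directed pairs of lists) and between 3.30 and 5.07 outside (median 4.18). Such pairs with the same replicate number were higher, at 3.42 to 3.80 inside and 4.85 to 5.07 outside. Pairs with different replicate numbers had 2.46 to 3.23 inside and 3.30 to 3.51 outside. Replicate number goes with the setting s, and the cause was not tested. Between replicates of a factor it lay between 3.94 and 6.94 inside and between 6.18 and 13.2 outside. In all 12 directed pairs the overlap was higher inside and the ratio to coverage lower. The rule kept windows with many peaks of these same lists, and this raises the covered bases by which the ratio is divided. Part of the lower ratio can thus follow from the choice of windows. The pairs share lists and no test was made.

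**Figure D5:**
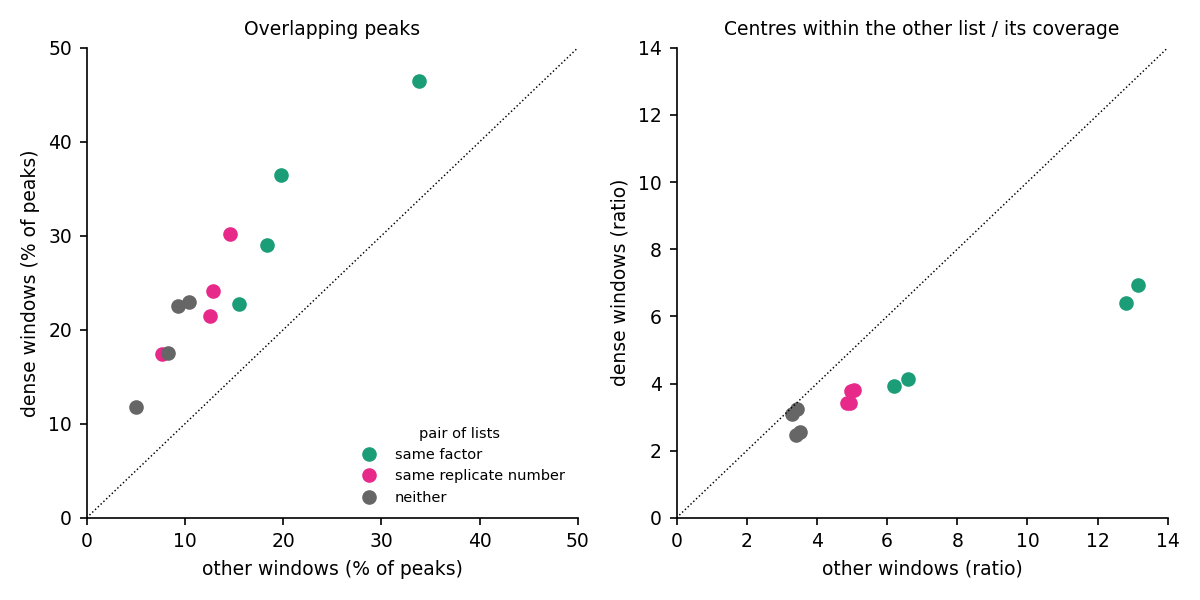
Each point is a directed pair of lists, coloured by whether the lists share the factor, the replicate number or neither, with other windows on the x axis, dense windows on the y axis and a dotted line where both are equal. On the left, the percentage of peaks that overlap the other list lies above the line for all 12 pairs, and on the right the share of centres within the other list divided by that list's coverage lies below it for all 12. The choice of windows by peak count itself raises both the overlap and the coverage inside.

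Overlapping peaks add to the sum that chose the windows, and a high sum raises the covered bases. Each pair was therefore also examined in windows chosen by the lists outside the pair, with a threshold of 2.20 times their mean. This choice too was added after seeing the data. Overlap was again higher inside in all 12 directed pairs, but by less. Between factors it was 1.30 to 1.99 times the overlap outside (median 1.60), compared with 1.71 to 2.42 times in the windows chosen by all lists. For GLI1 replicate 1 against GLI2 replicate 1 it was 13.5% inside and 8.09% outside, and for GLI1 replicate 2 against GLI2 replicate 2 it was 18.8% and 13.2%. The ratio to coverage was lower inside in 10 of the 12 pairs. Between factors its median was 4.09 inside and 4.27 outside, closer together than in the windows chosen by all lists. The exceptions, the pair of GLI1 replicate 1 and GLI2 replicate 2 in both directions, had ratios of 3.85 and 3.67 inside and 3.49 and 3.35 outside.

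Distances between the factors shortened in dense windows. From a GLI1 replicate 1 peak the median distance to the nearest GLI2 replicate 1 peak was 10.2 kb inside and 30.4 kb outside, centre to centre, and to the nearest GLI2 replicate 2 peak 6.2 and 17.8 kb. From GLI1 replicate 2 the distances were 12.5 and 32.3 kb to GLI2 replicate 1 and 6.1 and 16 kb to GLI2 replicate 2. A higher number of peaks per window by itself shortens such distances.

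Peaks inside dense windows were only slightly wider than peaks outside. The median width was 1400 bp inside and outside for GLI1 replicate 1 and 1200 bp on both sides for GLI1 replicate 2 and GLI2 replicate 2. For GLI2 replicate 1 it was 1400 bp inside and 1200 bp outside. Over the 4 lists the median differed by 50 ± 100 bp (SD, n = 4; two-sided exact sign-flip permutation p = 1). The difference was 0 in every list but GLI2 replicate 1, so this test had to give that p and cannot decide. Coordinates move in steps of 200 bp, which makes such ties of medians easy. Mean widths, compared after seeing the data, were higher inside in 4 of 4 lists, by 73.6 ± 43.6 bp (SD, n = 4; exact sign-flip permutation p = 0.125, the smallest that 4 lists allow). The difference was 61.8 and 62.8 bp in GLI1 replicates 1 and 2 and 136 and 33.8 bp in GLI2 replicates 1 and 2. In the same order, the widest peak was 36200, 11800, 100000 and 24600 bp inside, against 8200, 17000, 6600 and 8600 bp outside. Single wide peaks move a mean, and how much of the difference rests on them was not tested. Peaks of 3 kb or more made up 3.37% of GLI1 replicate 1 peaks inside against 2.45% outside, 5.38% against 3.55% in GLI1 replicate 2, 3.12% against 1.47% in GLI2 replicate 1 and 4.14% against 2.75% in GLI2 replicate 2.

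Scores, which only the replicate 1 lists give in usable form, were barely higher in dense windows. The authors' deposited score had a median of 47.3 inside and 46.9 outside for GLI1, and of 59.7 inside and 58.7 outside for GLI2. The lowest score was 40.0 in the GLI1 list and 50.0 in the GLI2 list, so scores are not comparable between the factors. Its 90th percentile was 63.7 against 62.2 for GLI1 and 78.0 against 74.3 for GLI2. Of GLI1 replicate 1 peaks in the top decile of scores, 8.59% lay in dense windows, compared with 5.73% in the bottom decile. For GLI2 replicate 1 the shares were 12.7% and 7.56%. High-scoring peaks were thus somewhat more often in dense windows in both lists, and most of them lay elsewhere.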

How the data were processed

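The submitters' processing notes name CASAVA 1.7, BWA and the build mm9. Which peak caller was used, and with what input, the labels and files do not say. The authors deposited 1 peak list per ChIP library, with chromosome, start, end and a score, and inputs have no list of their own here. All starts and ends are multiples of 200 bp, the narrowest peak is 1000 bp wide and the smallest gap between peaks of a list is 1200 bp. The deposited score has no stated unit. It was 0 for 55722 GLI1 and 48898 GLI2 replicate 2 peaks, and replicate 2 scores were not used.

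Windows of 100 kb ran from the first to the last window of a chromosome with a peak of any list. Windows, lists and named windows were chosen with earlier results of these data known. Named windows are the 10 with the largest sum (ties by the higher lowest list, then position), the 3 longest runs (ties by peaks), the 5 with most regions of all 4 lists (ties by sum, then position), and the 5 leaning most to each factor. Overlap means at least 1 bp, and merged regions are unions of overlapping peaks. Exact sign-flip permutation tests of widths used the lists as units, and shares carry exact (Clopper-Pearson) 95% intervals. The window and overlap code was tested on simulated data. Alternatives varied threshold, grid, weights, joining and lists. No mm9 genome or annotation was used here, so genes, sequences and motifs are not reported. Scripts ran in Python 3.11.15 (scipy 1.17.1, numpy 2.4.6, pandas 2.3.3), with figures drawn in matplotlib 3.10.9.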

Additional observations from a re-analysis of the deposited data

Results flagged for a closer look

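Outside the autosomes, 8 of 1636 X chromosome windows (0.489%, 95% exact interval 0.211 to 0.961) held 15 or more peaks over the 4 lists. This share was below the 3.5% of autosomal windows, and the count was above the 3 that a count of 0 allows. That bound does not say how many windows reach 15 peaks through scatter in the counts alone. The X averaged 5.37 peaks per window, below the autosomal 6.83. Its 8 windows held 2.88 and 5 peaks of GLI1 replicates 1 and 2 and 2.88 and 5.12 peaks of GLI2 replicates 1 and 2. The difference from the autosomes was not tested.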

How the results depend on the processing

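The number of dense windows rests on the threshold: it was 2654 with a sum of 12 or more, 240 with 18 or more, 2813 with 50 kb windows (8 or more), 173 with 200 kb windows (30 or more) and 410 with replicate 1 scores of at least 50, which removes GLI1 peaks only, since GLI2 replicate 1 has none below. It ranged from 415 to 1298 when a list was left out, at a fixed 12 or more peaks whatever the level of the lists kept. Under the other alternatives it ranged from 628 to 893. With lists of equal weight, 760 windows were dense, 658 of them among the 846. The share with a dense neighbour was 46.4%, 22.9%, 24.6% and 25.5% with sums of 12, of 18, with scores of at least 50 and with the chromosome-scaled threshold, and 18.3 to 33.1% with a list left out. GLI1 peaks that met GLI2 made up 25.1% and 34.4% with sums of 12 and 18, 31.9% with equal weights, 31.1% with peaks under 2 kb apart joined, 36.7% with scores of at least 50, 25.5% by reciprocal overlap of 50% and 24.7% with peaks set to 500 bp. They made up 13.9 to 35.0% with a list left out. GLI2 peaks that met GLI1 made up 32.8%, 41.8%, 32.0% and 31.2% with sums of 12 and 18, by reciprocal overlap and at 500 bp, and 20.0 to 39.6% with a list left out. GLI1 minus GLI2 in the share of peaks inside ranged from -1.59 to 1.10 percentage points with a list left out. It changed sign there only, without GLI1 replicate 1 (0.137), GLI2 replicate 1 (1.10) or GLI2 replicate 2 (0.329). With lists of equal weight it was -1.98, the largest difference under any alternative. The replicate 1 minus 2 deviations of GLI1 and of GLI2 correlated weakly over windows (r = 0.0885), and the labels name no shared culture or day for lists of the same replicate number. Window counts of GLI1 and GLI2 correlated at r = 0.174 within replicate 1 and 0.217 within replicate 2. Across replicate numbers r was 0.107 and 0.145, and between replicates of a factor 0.241 for GLI1 and 0.333 for GLI2. With the replicate number as a block the difference is -0.641 as without it, and no test is given for it. The median width difference lay between 0 and 66.7 bp throughout, and the mean width difference was 73.6 bp. The causes of these shifts were not tested, except that a left-out list also removes its overlaps. Depth of the libraries is unknown.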
